A study of Mus musculus with 9 samples.

Results

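RAW264.7 cells, a mouse macrophage line that fuses into osteoclast-like cells when given RANKL, were sequenced after 3 days as untreated control cells, as cells given RANKL (receptor activator of NF-κB ligand), and as cells given RANKL together with uridine (RANKL + UD). The comparison described here sets the 3 RANKL + UD libraries against the 3 control libraries, 6 of the 9 libraries in all, and asks how much of the osteoclast programme was present when UD accompanied RANKL and which genes passed the control level in the direction opposite to RANKL. The RANKL libraries serve as the reference for that direction. All 3 groups are the same cell line, no library received UD without RANKL, and the UD dose of these libraries is not named in the sources used here, so the difference described is that of both agents together. Genes were kept when FPKM (mapped fragments scaled by gene length and by library depth) reached 1 in at least 3 of the 9 libraries, which left 11995 of 56691 genes.

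Osteoclasts form when RANKL binds its receptor RANK on cells of the macrophage lineage. The signal runs through TRAF6, NF-κB and AP-1 to NFATc1, the transcription factor that switches on genes for cell fusion, for acid secretion by the vacuolar proton pump, and for enzymes that dissolve bone matrix. Macrophage genes and repressors such as IRF8 are turned down on the way, and the cells leave the division cycle. Uridine is a pyrimidine nucleoside that cells make or salvage for RNA, DNA and sugar-nucleotide synthesis.

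Total counts were 15951800 to 19746862 per library in control and RANKL + UD. The number of libraries limited the precision, and depth did as well for genes with few counts. Car6, for example, had 95 counts over the control libraries and 11 over the RANKL + UD libraries. Nothing in the labels says that the 3 libraries of a group came from separate cultures, so p-values measure the spread between these libraries. The 9 tested osteoclast markers all rose, and their summed level was 57.6 to 60.3 FPKM in control, 1724 to 1761 with RANKL + UD and 2715 to 2920 with RANKL. Among them Acp5, Mmp9, Oscar and Itgb3 averaged less than 1 FPKM in control and passed the filter through libraries given RANKL. The rise of such genes was therefore in part set by the filter. Of the 8 tested macrophage markers 6 fell and 2 rose, and their sum was 9458 to 10070 FPKM in control, 2273 to 2410 with RANKL + UD and 2623 to 2875 with RANKL. Defining markers of T cells (Cd3e, Cd8a), B cells (Ms4a1), neutrophils (Ly6g, S100a9) and erythroid cells (Hbb-bs) were at 0 in all 9 libraries. The 5 T cell markers summed to 1.02 to 1.42 FPKM in control, 1.21 to 1.77 with RANKL + UD and 1.42 to 1.85 with RANKL, and the only one tested, Lck, was not called against control (adjusted p = 0.321). The summed markers of B cells, neutrophils, erythroid cells, mast cells, fibroblasts or osteoblasts, endothelium and epithelium stayed at or below 0.99 FPKM. Dendritic cell markers summed to 14.3 to 14.9 FPKM in control, 17.4 to 19.2 with RANKL + UD and 40.5 to 44.05 with RANKL. Both tested members rose with RANKL + UD, Flt3 was at 0 in all libraries, and their part in the results was not tested. In bulk RNA, fewer cells of a type and less RNA per cell cannot be told apart.

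RANKL + UD differed from control at nearly as many genes as RANKL did. By edgeR (quasi-likelihood test, Benjamini-Hochberg adjusted p under 0.05), 6473 of 11995 genes differed between RANKL + UD and control (54.0%). They were split evenly, with 3197 higher (26.7%) and 3276 lower (27.3%), and 1116 (9.30%) and 1531 (12.8%) of them changed more than 1.5-fold. RANKL against control gave 6906 genes (57.6%), 3278 higher (27.3%) and 3628 lower (30.2%), and RANKL + UD against RANKL gave 4651 (38.8%). The control libraries enter both comparisons with control, so the 2 sets of fold changes are not independent of each other. The median log2 fold change of all tested genes was -0.0021 in RANKL + UD against control.

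Genes of bone resorption and acid secretion rose without exception: all 17 tested members rose with RANKL + UD, with a median log2 fold change of 1.59, and Mmp14, a membrane-bound matrix metalloproteinase, was not tested because of its low level. Acp5, Mmp9 and Slc9b2 averaged less than 1 FPKM in control and passed the filter through libraries given RANKL, so their rise was in part set by it. Ctsk, the cysteine protease that cleaves bone collagen, stood at 7.85, 8.74 and 8.42 FPKM in control, 897, 857 and 854 with RANKL + UD and 1456, 1443 and 1573 with RANKL. The groups did not overlap, and the log2 fold change of Ctsk over control was 6.70 ± 0.066 (SE, n = 3 libraries per group, edgeR adjusted p = 1.19e-24). Acp5, which encodes tartrate-resistant acid phosphatase, the classical stain of osteoclasts, rose from 0.88, 0.8 and 1.05 FPKM to 334, 342 and 348 with RANKL + UD, against 382, 413 and 437 with RANKL. Mmp9, a gelatinase, went from 0.57, 0.4 and 0.32 FPKM in control to 128, 134 and 135 with RANKL + UD, and it reached 298, 326 and 319 with RANKL. Ctsk, Acp5 and Mmp9 therefore lay far above control in every RANKL + UD library and below every RANKL library.

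The proton pump followed the same order with smaller folds. Atp6v0d2, the osteoclast form of a subunit in its membrane sector, stood at 8.85 ± 0.178 FPKM in control (SD, n = 3), 232 ± 4.55 with RANKL + UD and 339.5 ± 2.99 with RANKL. Tcirg1, the a3 subunit that places the pump at the ruffled border, rose by 1.29 on the log2 scale, and the cytosolic subunits Atp6v1a, Atp6v1b2, Atp6v1c1, Atp6v1d and Atp6v1h rose by 0.84 to 1.83. Clcn7, the chloride-proton exchanger that balances the pump's charge, rose by 1.48, and its partner Ostm1 by 0.35. Slc9b2, a sodium-proton exchanger, stood at 0, 0.04 and 0.06 FPKM in control and 13.6, 13.4 and 11.1 with RANKL + UD. Plekhm1 and Snx10, which act in vesicle traffic to the ruffled border, rose by 0.20 and 0.37.

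Against RANKL, 15 of these 17 genes were lower with UD, where 20.2% of all tested genes were lower, and 1 was higher. That gene was Car2, the carbonic anhydrase that supplies protons to the pump: it stood at 4.22, 5.52 and 5.44 FPKM in control, 97.5, 99.4 and 103 with RANKL and 131, 131 and 127 with RANKL + UD, and the difference from RANKL was 0.29 ± 0.055 on the log2 scale (edgeR adjusted p = 0.000278). Ostm1 did not pass the test against RANKL (log2 difference -0.12 ± 0.055, adjusted p = 0.0853). The distance from control was also written as a share of the RANKL distance, (RANKL + UD minus control) divided by (RANKL minus control) on group mean FPKM. That share had a median of 69.4% over the 17 genes and ran from 38.1% for Snx10 to 131% for Car2. It was 42% ± 1.35 (SE) for Mmp9, 51.9% ± 3.32 for Slc9b2, 58.1% ± 1.88 for Ctsk, 67.4% ± 0.87 for Atp6v0d2 and 83.1% ± 3.4 for Acp5.

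**Figure D1:**
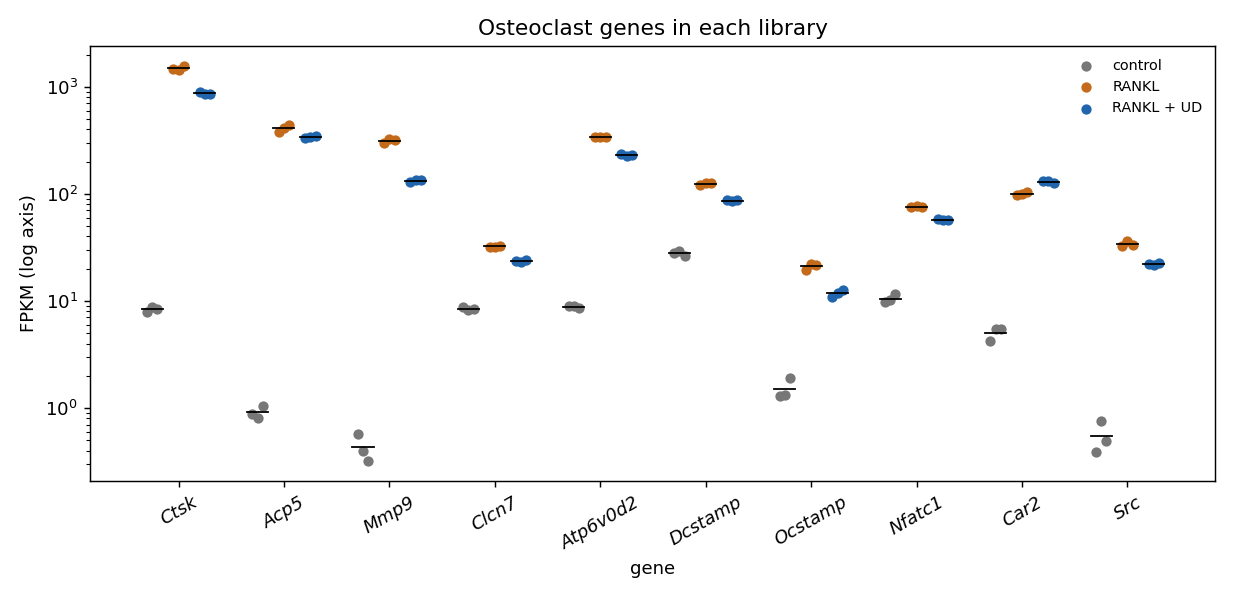
FPKM on a log axis of 10 osteoclast genes in each of the 9 libraries, with points for libraries and black lines for group means. The RANKL + UD libraries lie above every control library for all 10 genes, and between control and RANKL for 9 of them, while Car2 lies above RANKL.

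Among receptors and signalling proteins 12 of 20 tested members rose (60%) and 7 fell (35%) with RANKL + UD, with a median log2 fold change of 0.37. Of all tested genes 26.7% rose and 27.3% fell. Tnfrsf11a, the gene of RANK itself, rose from 17.4 ± 1.63 to 25.8 ± 0.618 FPKM, and RANKL alone gave 30.9 ± 1.04. Oscar, an immunoglobulin-like co-receptor, stood at 0, 0.19 and 0 FPKM in control, 8.54, 9 and 6.74 with RANKL + UD and 21.9, 21.9 and 22.2 with RANKL, a share of 36.6%. Siglec15, a sialic acid-binding receptor of osteoclasts, rose by 5.70 ± 0.26 and Src, the kinase needed for the ruffled border, by 5.31 ± 0.11. Itgb3 and Itgav, the chains of the vitronectin receptor, rose by 2.13 and 1.49, and Ckb, brain-type creatine kinase, by 1.48. Itgb3 was low, with means of 0.163 FPKM in control, 0.73 with RANKL + UD and 1.44 with RANKL. Its mean reached the level of the filter only with RANKL.

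The 7 members that fell were Csf1r, Trem2, Tyrobp, Fcer1g, Plcg2, Tec and Ppp3ca. Csf1r, the receptor for macrophage colony-stimulating factor, fell from 332, 343 and 383 FPKM to 159, 172 and 170.4, below the 181, 189 and 185 of RANKL. Trem2 (-1.05 on the log2 scale), its adaptor Tyrobp (-0.73) and Plcg2 (-0.85) were likewise lower than with RANKL (log2 differences of -0.33, -0.28 and -0.21), and of the 3 genes Plcg2 alone had no overlap with the RANKL libraries. Traf6, the adaptor that RANK recruits, rose by 0.28 and did not differ from RANKL by the test (0.058 ± 0.056, adjusted p = 0.447). Rcan1, a calcineurin-regulated inhibitor of calcineurin, rose by 1.57 and was also not called against RANKL (-0.13 ± 0.061, adjusted p = 0.093). Rgs10, a regulator of G-protein signalling, was the member not called against control (-0.046 ± 0.062, adjusted p = 0.564).

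Fusion genes divided. Dcstamp and Ocstamp, the transmembrane proteins required for osteoclast fusion, rose: Dcstamp stood at 28.1, 29.6 and 26.4 FPKM in control and 87, 85 and 86.7 with RANKL + UD, and Ocstamp at 1.3, 1.33 and 1.89 and 10.8, 11.9 and 12.6. Their levels with RANKL were 122, 126 and 127 and 19.4, 22.3 and 21.7, with no overlap between groups. Of the 11 tested members 3 rose (27.3%) and 6 fell (54.5%) with RANKL + UD (median -0.30), and with RANKL 6 rose and 1 fell (median 0.29). The share that rose with RANKL + UD is near the 26.7% of all tested genes, and 27.3% of all tested genes fell. Cd44, the hyaluronan receptor, moved beyond control in the opposite direction: 75.2, 76.2 and 76.6 FPKM in control, 90, 87.1 and 85.4 with RANKL and 61.4, 59.7 and 60.5 with RANKL + UD. The tetraspanin Cd9 was close to control (0.046, adjusted p = 0.453) and -0.65 from RANKL, whereas Cd81, another tetraspanin, fell in both comparisons with control (-0.71 and -0.53). Cd47 and Sirpa, a ligand and its receptor that aid macrophage fusion, and the protease Adam8 and integrin Itga5 fell with RANKL + UD (log2 fold changes of -0.53, -0.30, -0.31 and -0.37) and were not called with RANKL.

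Transcription factors of osteoclast formation rose in 9 (50%) and fell in 6 (33.3%) of 18 tested cases (median 0.15). Among all tested genes 26.7% rose and 27.3% fell, so the share that fell is near that of all genes. Nfatc1 stood at 9.77, 10.3 and 11.5 FPKM in control, 57.7, 57.4 and 57.2 with RANKL + UD and 74.9, 77.5 and 76 with RANKL, and its log2 fold change over control was 2.45 ± 0.055 (edgeR adjusted p = 6.01e-19). Prdm1, which encodes the repressor Blimp1, had 4 counts in all control libraries together and reached 7.04, 7.6 and 6.52 FPKM with RANKL + UD. Fosl2, an AP-1 subunit, rose by 3.67 ± 0.064 and was not called against RANKL (-0.058 ± 0.055, adjusted p = 0.435), and Jdp2, another AP-1 protein, rose by 2.91. Myc went from 0.83, 0.73 and 0.74 FPKM in control to 14.8, 13.2 and 14.1 with RANKL + UD and 36.1, 35.2 and 37.5 with RANKL, a share of 37.3%. Mitf, a driver of lysosomal and osteoclast genes, lay a small distance above control (0.18 ± 0.049), against 0.78 with RANKL, a share of 21.2%. Fos, the AP-1 subunit required early in differentiation, fell from 190.1, 199 and 199 FPKM to 22.4, 22 and 20.9, lower than the 33, 36.5 and 38.2 of RANKL.

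Repressors of osteoclast formation were mostly lower. With RANKL + UD 9 of 10 tested members fell, with a median of -1.39, and with RANKL 7 fell and 2 rose, with a median of -0.48. Irf8, an inhibitor of NFATc1, Bcl6, a repressor of NFATc1 targets, and Cebpb, which overlaps Peds1 on the other strand, fell (log2 fold changes of -2.51, -1.47 and -1.31), and each was lower than with RANKL (log2 differences of -0.48, -0.94 and -0.90). Id2, an inhibitor of helix-loop-helix factors, was the member that rose (0.95). Tsc22d3, the glucocorticoid-induced leucine zipper, was above control with RANKL (0.58) and below it with RANKL + UD (-0.72).

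Across all tested genes, the 10 with the largest rises among those with no overlap of libraries and a mean of 5 FPKM or more in the higher group were Scin, Rab15, Pls1, Sema7a, Prdm1, Slc9b2, Acp5, Mmp9, Gstt4 and Gstt1. Scin, an actin-severing protein, had no count in any control library and 30, 30.7 and 31.7 FPKM with RANKL + UD, at least 1617-fold higher when the control level is set to 3 counts over the group. Rab15, a small GTPase of endocytic recycling, also had no control count and was at least 825-fold higher, and its level with RANKL + UD (9.93, 10.7 and 10.1 FPKM) exceeded that with RANKL (6.75, 6.58 and 6.61). Pls1, an actin-bundling plastin, stood at 12.1 ± 0.224 FPKM with RANKL + UD and 11.2 ± 1.16 with RANKL, from 1 count in control. The largest falls under the same limits were those of Fosb, Cbr2, Serpinb10, F630028O10Rik, Cd28, Ighd4-1, Hpgd, Tlr8, S1pr1 and Abcd2. Fosb, an AP-1 subunit, fell from 14.6, 14.7 and 14.4 FPKM to 0.05, 0 and 0.09, and S1pr1, the sphingosine 1-phosphate receptor of migrating precursors, from 10.9, 10 and 10.5 to 0.55, 0.46 and 0.21, lower than the 1.47, 1.22 and 1.54 of RANKL. Ighd4-1 is a very short immunoglobulin segment with 60 counts in all control libraries, so its FPKM rests on few reads.

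Macrophage surface and scavenger receptors fell in 16 of 20 tested cases and rose in 3, with a median of -1.76, against -1.25 with RANKL. The log2 fold change was -4.26 for Siglec1, a sialic acid-binding adhesion receptor, -3.83 and -3.81 for the immunoglobulin receptors Fcgr3 and Fcgr1, and -2.79 for the fractalkine receptor Cx3cr1. Lyz2, the lysozyme of macrophages and by far the most abundant of these transcripts, fell from 7882, 7818 and 8299 FPKM to 1246, 1312 and 1299, and reads it may share with its close copy Lyz1 cannot be told apart here. Fcgr3 (35, 32.9 and 40.1 FPKM in control) was at 2.34, 2.19 and 3.03 with RANKL + UD and at 5.06, 5.78 and 6.4 with RANKL, so it lay further from control with UD. The members that rose were Axl (2.27), Clec4n (2.45) and Cd68 (0.23), the last a lysosomal protein that osteoclasts also carry. Of 5 tested complement genes 4 fell, among them C5ar1 (-2.70), and Cfp, which encodes properdin, rose (2.08).

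Chemokines, cytokines and their receptors fell in 14 of 20 tested cases and rose in 4, with a median of -0.998. Falls of -3.90 ± 0.15 on the log2 scale for Cxcl2, a neutrophil attractant, -3.72 ± 0.079 for Cxcl16, which overlaps Zmynd15 on the other strand, and -3.06 for the interleukin 10 receptor gene Il10ra were the largest. Cxcr4, the receptor for CXCL12, fell with RANKL + UD and was not called with RANKL: 1.51, 1.62 and 1.7 FPKM in control, 1.57, 1.52 and 1.93 with RANKL and 0.42, 0.31 and 0.54 with RANKL + UD (log2 difference from RANKL -2.05 ± 0.30, adjusted p = 1.32e-05). Ccr1 and Ccl9, a receptor and ligand pair of osteoclast precursors, rose by 3.67 and 1.52, and Il1rn, the interleukin 1 receptor antagonist, by 0.96. Ccl2, a monocyte attractant, stood at 8.4, 8.81 and 7.05 FPKM in control, 6.06, 5.59 and 5.73 with RANKL and 13, 10.9 and 12.4 with RANKL + UD, above control where RANKL lay below it.

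Interferon-stimulated genes fell nearly without exception. With RANKL + UD 24 of 25 tested members fell (median -1.001) and all RANKL + UD libraries lay below all control libraries for those 24 (59.9% of all tested genes did not overlap in either direction), while with RANKL 25 fell (median -1.31). The log2 fold change was -3.34 for Mx1, an antiviral GTPase, -2.75 for Oasl2, an RNA sensor family member, and -1.80 for Irf7, the factor that amplifies interferon output and overlaps Phrf1 on the other strand. The exception was Ifit1, which binds foreign RNA caps and stood at 1.81, 1.18 and 1.27 FPKM in control, 0.48, 0.51 and 0.63 with RANKL and 1.53, 1.96 and 1.09 with RANKL + UD. Against RANKL, 9 of the 25 were higher with UD and 1 lower, where 18.6% of all tested genes were higher. MHC class I presentation genes fell in 12 of 14 tested cases (median -0.60), among them H2-K1 (-1.03), B2m (-0.65) and the regulator Nlrc5 (-1.30), and H2 genes share near-identical sequence that can split reads between them.

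**Figure D2:**
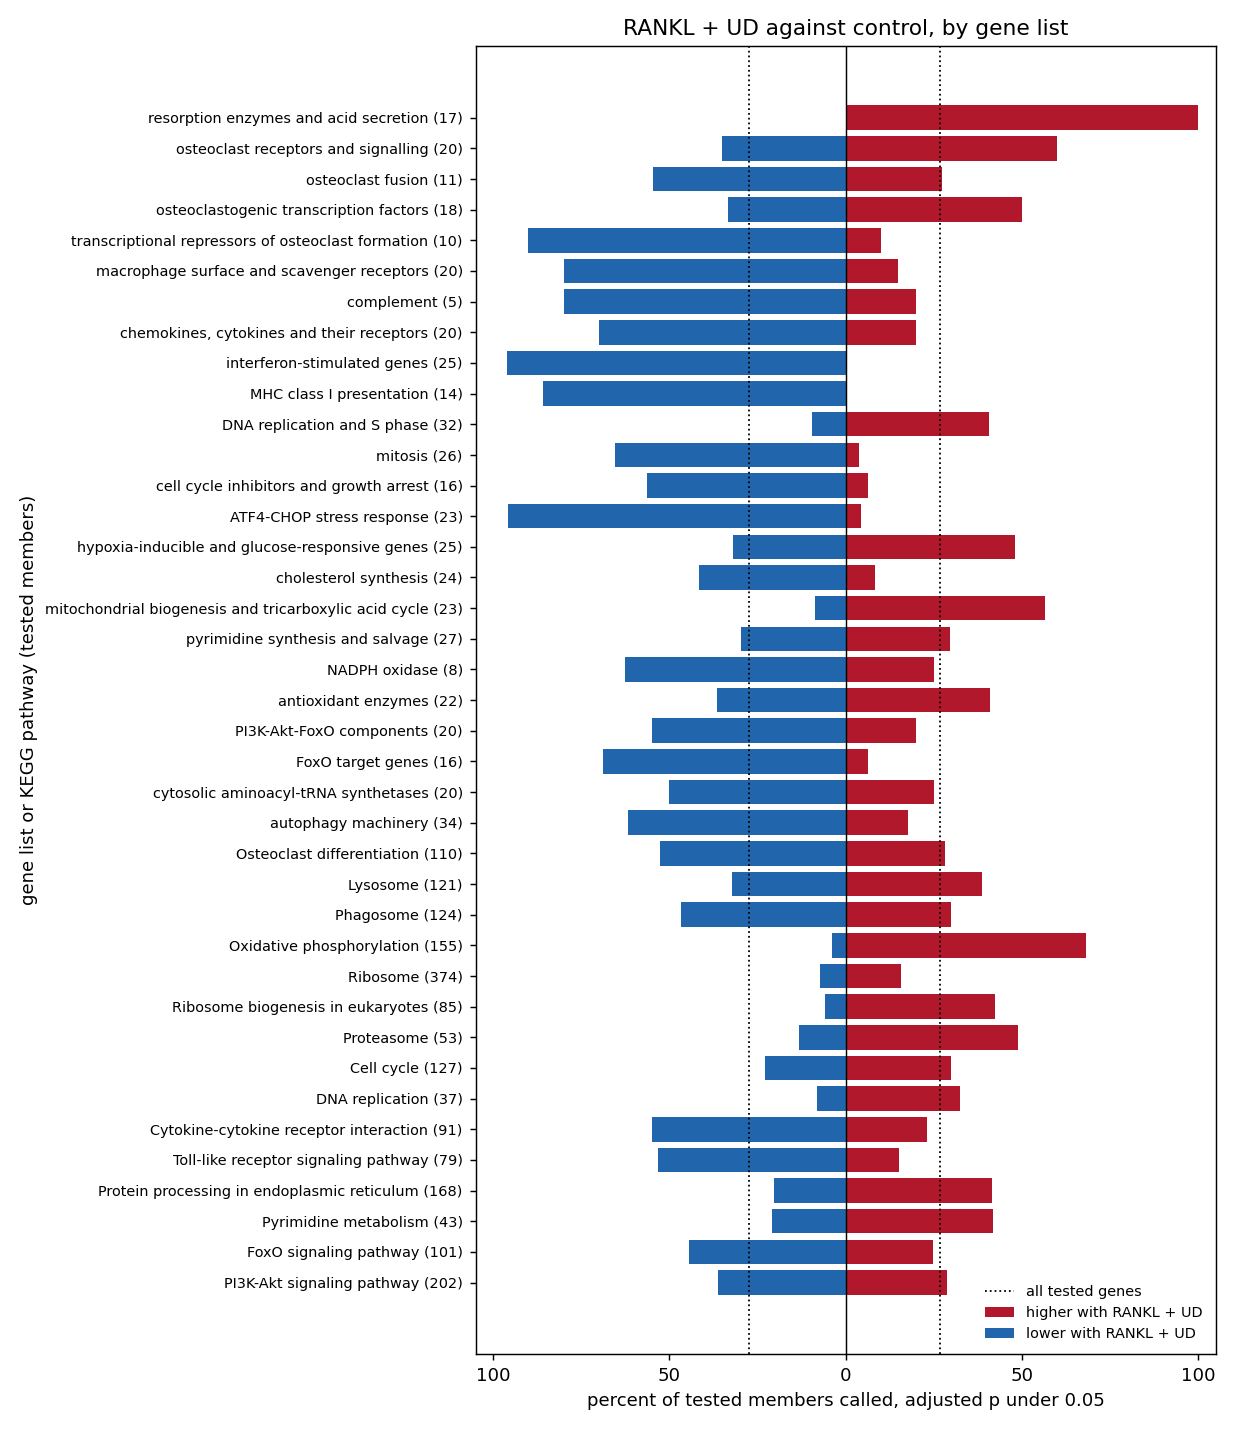
Percent of the tested members of each gene list and KEGG pathway that were lower (left) or higher (right) with RANKL + UD than control, with dotted lines at the shares of all tested genes, 27.3% lower and 26.7% higher. All members of the resorption list were higher, and nearly all interferon-stimulated and ATF4-CHOP genes were lower.

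Genes annotated to oxidative phosphorylation or listed for the tricarboxylic acid cycle mostly rose with RANKL + UD, as they did with RANKL. Of 155 tested genes annotated to oxidative phosphorylation 106 rose and 6 fell (median 0.49), and with RANKL 99 rose and 4 fell (median 0.44). That annotation was taken whole, and vacuolar proton pump subunits within it, which are not mitochondrial, were not counted apart. In the tricarboxylic acid cycle and mitochondrial biogenesis list 13 of 23 rose and 2 fell, among them the malate dehydrogenase Mdh2 (0.85), Sdha (0.79) and Idh3a (0.77). Ogdh, the oxoglutarate dehydrogenase, rose from 27.1 ± 2.58 to 37.5 ± 0.765 FPKM with RANKL + UD and was not called with RANKL (25.7 ± 0.648). The members that fell were Acod1, which makes itaconate (-0.75), and Gabpa, a transcription factor (-0.27).

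Glycolytic and hypoxia-inducible genes were divided with RANKL + UD. Of 25 tested members 12 rose (48%) and 8 fell (32%), with a median of 0.041, against 19 and 5 with RANKL (median 0.64). With RANKL + UD 26.7% of all tested genes rose and 27.3% fell. Against RANKL, 22 of the 25 were lower with UD, where 20.2% of all tested genes were lower. Ldha, lactate dehydrogenase A, rose by 0.84, Eno1 by 0.75, Pgk1 by 0.59 and Bnip3, a mitochondrial autophagy receptor, by 0.62, and RANKL gave 1.18, 1.05, 1.00 and 1.43. Vegfa was at 17.1 ± 0.849 FPKM in control and 17.6 ± 0.639 with RANKL + UD, and it was 28.6 ± 0.237 with RANKL. Txnip and Arrdc4, arrestin-domain genes that respond to glucose, went the other way. Txnip stood at 329.7, 348 and 339.9 FPKM in control, 39.5, 38.5 and 41.3 with RANKL and 196, 202 and 205 with RANKL + UD, and Arrdc4 at 3, 3.85 and 3.14, 0.45, 0.41 and 0.46 and 3.63, 2.98 and 3.63. Every RANKL + UD library of Txnip lay below control (-0.75 ± 0.045, edgeR adjusted p = 5.65e-12) and above RANKL, and Arrdc4 overlapped control (0.035 ± 0.13, adjusted p = 0.844).

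In the lists described here, cell cycle genes separated by phase. In the DNA replication list 13 of 32 tested members rose with RANKL + UD and 3 fell (median 0.15), whereas with RANKL 27 fell and 1 rose (median -0.41), and 31 of the 32 were higher with UD than without. In the mitosis list 17 of 26 fell and 1 rose (median -0.25), against 25 that fell with RANKL (median -0.85). All 26 were higher with UD than with RANKL. Of all tested genes, 18.6% were higher with UD than with RANKL. Against control, 26.7% of all tested genes rose and 27.3% fell with RANKL + UD, and 27.3% rose and 30.2% fell with RANKL. Not called against control with RANKL + UD were 16 of the replication list and 8 of the mitosis list. The KEGG DNA replication pathway had 12 of 37 genes higher (32.4%) and 3 lower (8.11%) with RANKL + UD (median 0.10). In the KEGG cell cycle pathway 38 of 127 were higher (29.9%) and 29 lower (22.8%), with a median of 0.041. Mcm4, a subunit of the replicative helicase, stood at 30.4, 30.4 and 33.1 FPKM in control, 24.6, 25.6 and 24.6 with RANKL and 41, 43.6 and 40.4 with RANKL + UD. Ccne2, the cyclin E2 of S-phase entry, rose by 0.69 ± 0.078 over control, although Ints8 overlaps it on the other strand and reads may be shared. Among mitotic genes Mki67 was 106 ± 6.94 FPKM in control, 84.1 ± 1.69 with RANKL + UD and 48.5 ± 5.34 with RANKL, and Kif23, Bub1b and Aurkb fell (log2 fold changes of -0.55, -0.52 and -0.46). Bub1, a spindle checkpoint kinase, was the mitotic gene that rose (0.50). Cell cycle inhibitors fell in 9 of 16 tested cases, among them Btg2 (-1.82), Ccng2 (-1.26) and Cdkn1a (-0.41), and Ccng1, a p53 target, rose from 49 ± 2.88 to 103 ± 2.15 FPKM.

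**Figure D3:**
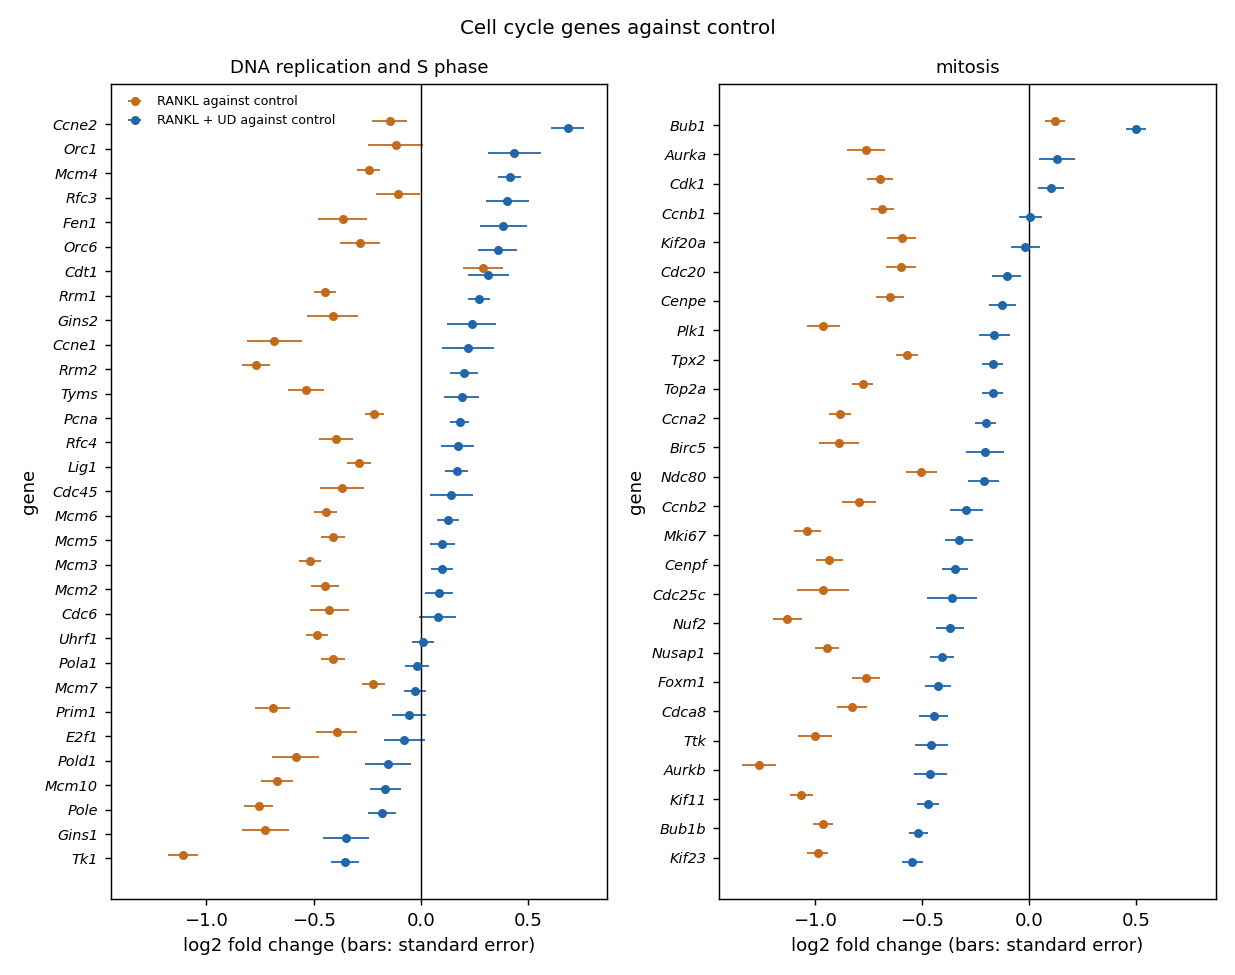
Log2 fold changes against control of 31 of the 32 tested DNA replication genes (left) and mitotic genes (right), with RANKL in orange, RANKL + UD in blue and bars for the standard error of the fit. Replication genes lie around or above 0 with RANKL + UD for most members, while nearly all lie below 0 with RANKL, and mitotic genes lie between the RANKL value and control for most members.

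In all, 266 genes lay beyond control in the direction opposite to RANKL, that is, with an adjusted p under 0.05 in both comparisons with control and opposite signs. Of these, 115 (0.959% of tested genes) were above control with RANKL + UD and below it with RANKL, and 151 (1.26%) were below control with RANKL + UD and above it with RANKL. The rule uses both contrasts, so the counts and values are a description and carry no test. Their distances from control were mostly small: the median log2 fold change was 0.31 for those above and -0.33 for those below, and 17 (0.142%) and 36 (0.300%) passed a 1.5-fold change. For 113 of the 115 and 143 of the 151 no RANKL + UD library overlapped a control library. The rule asks for a call in that same contrast, so this lack of overlap largely follows from the rule. Among all tested genes, called or not, 59.9% did not overlap in either direction. At the edge of the rule, Rusc2 (adjusted p = 0.0486 in RANKL + UD against control by edgeR) and Mphosph9 (0.0482 in RANKL against control) fell inside it, and Nsa2 (0.0502) and Rnf168 (0.0504) outside. When libraries were scaled by total counts alone, 197 genes were above and 103 below, so the balance of the 2 directions depended on the scaling.

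**Figure D4:**
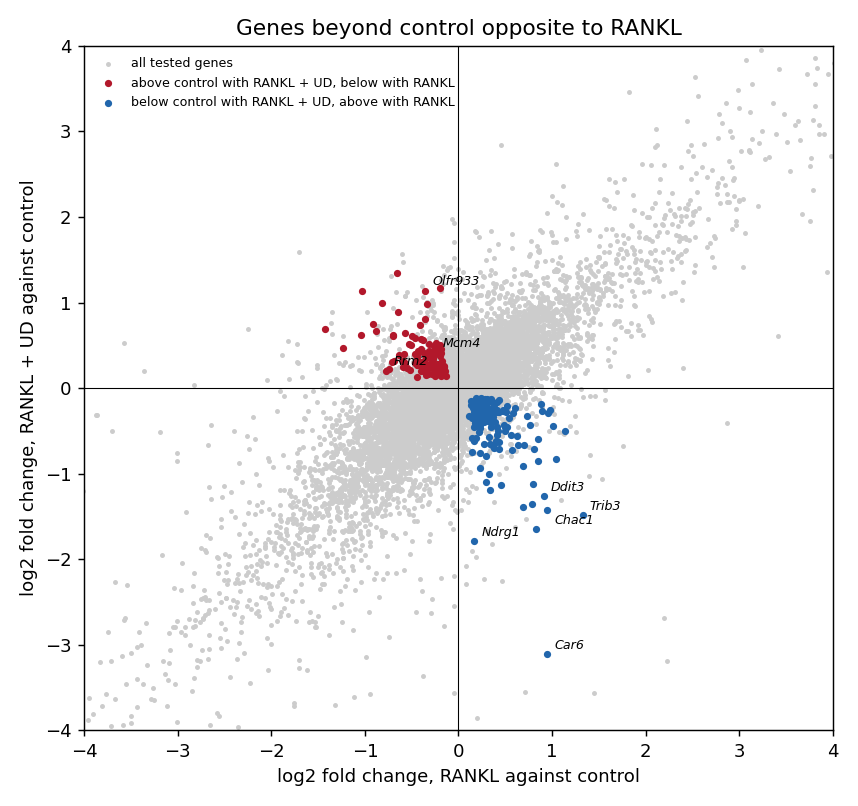
Log2 fold changes of the tested genes in RANKL against control (horizontal) and RANKL + UD against control (vertical), with both axes cut at 4 so that 181 genes fall outside. Red points are the 115 genes above control with RANKL + UD and below with RANKL, blue points the 151 genes in the reverse position.

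The ATF4-CHOP stress response, the programme that cells start when amino acids run short or proteins misfold, held more of the genes below control than the other lists described, 13 of the 151. With RANKL + UD 22 of its 23 tested members fell (median -0.62), while with RANKL 14 rose and 5 fell (median 0.34). Against RANKL, 21 of the 23 were lower with UD, where 20.2% of all tested genes were lower. Trib3, a pseudokinase that restrains Akt and ATF4, stood at 7.74, 7.15 and 7.73 FPKM in control, 16.1, 18 and 19.2 with RANKL and 2.56, 2.74 and 2.78 with RANKL + UD. Chac1, which degrades glutathione, was at 3.77, 5.26 and 3.64, 8.37, 7.78 and 7.01 and 1.18, 1.87 and 1.73 FPKM in the same order, and Ddit3, the gene of CHOP, at 17.3, 16.7 and 15.2, 30.4, 27 and 29.9 and 7.66, 6.19 and 6.56. None of these 3 genes had overlapping groups. Ddit3 overlaps Mars1 on the other strand, and the counting is not stated to use strand, so reads of the pair may be shared. Mars1 itself was -0.35 from control.

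Atf4 itself, whose protein is controlled mainly by translation, moved little: 110.5, 114 and 118 FPKM in control, 143, 142 and 150.5 with RANKL and 102, 108 and 102 with RANKL + UD, a log2 fold change of -0.14 ± 0.047 over control. Atf3, a stress-induced repressor, fell in both comparisons, from 39.7 ± 1.38 FPKM in control to 4.52 ± 1.02 with RANKL + UD and 18.9 ± 0.807 with RANKL. The amino acid carriers Slc7a11 (cystine), Slc3a2 (the shared heavy chain) and Slc7a5 (large neutral amino acids) fell (log2 fold changes of -0.62, -0.45 and -0.87), and of these Slc7a5 was also lower with RANKL (-0.29). Asns, asparagine synthetase, changed by -0.51, and the serine synthesis enzymes Phgdh and Psat1 by -0.85 and -0.31. Pck2, the mitochondrial enzyme that makes phosphoenolpyruvate, changed by -1.14 and was not called with RANKL. Ddit4 and Nupr1, stress-induced regulators of mTOR and transcription, changed by -0.66 and -0.70, and both were above control with RANKL, while the RANKL + UD libraries of Ddit4 overlapped control. Sesn2, an mTORC1 inhibitor, was the member that rose (0.32, with overlapping libraries), against 1.17 with RANKL.

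**Figure D5:**
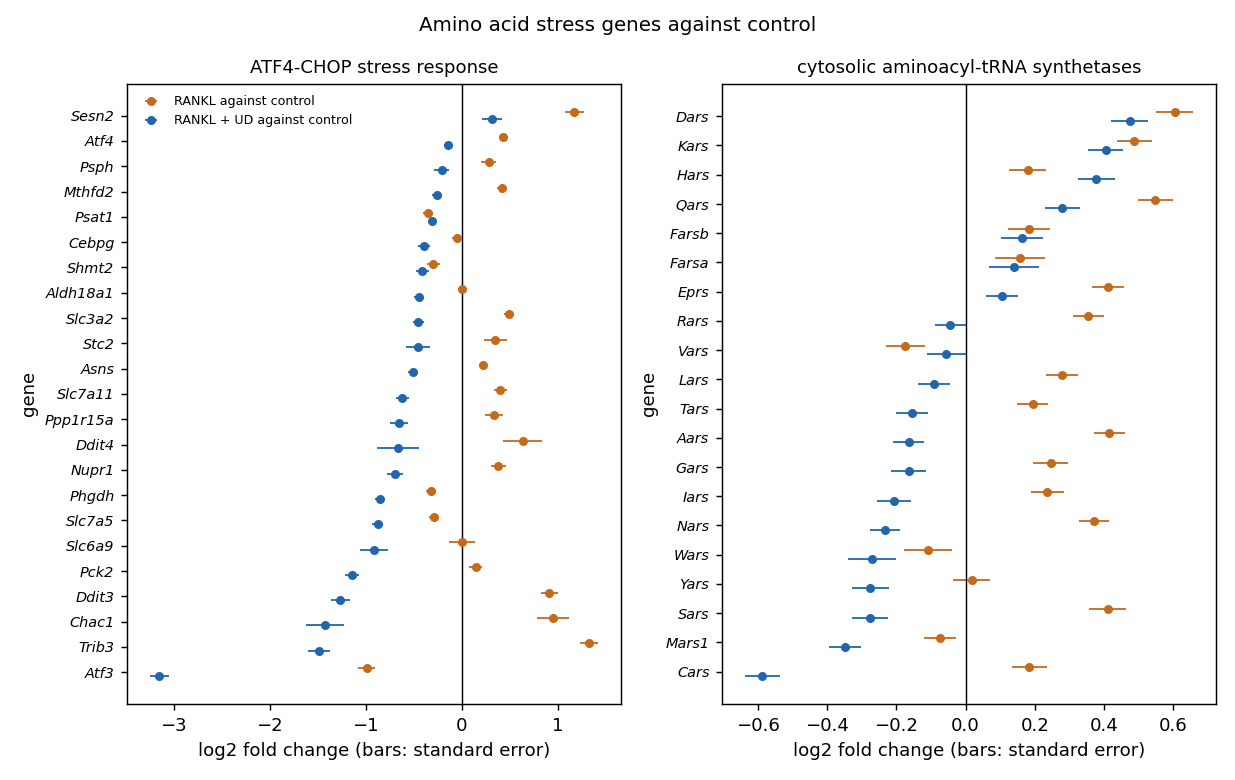
Log2 fold changes against control of ATF4-CHOP genes (left) and cytosolic aminoacyl-tRNA synthetases (right, a list added after values of some members were seen), with RANKL in orange, RANKL + UD in blue and bars for the standard error of the fit. The blue point lies left of the orange point for most genes of both panels.

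The promoters of ATF4-CHOP genes that met the rule are shown because they carry letters of the composite C/EBP-ATF response element in the 250 bases before the annotated start. The pattern TGATGNAA was searched on both strands of RefSeq promoters (GRCm38.p6), together with patterns of other factors. It was not among the patterns first chosen and was added for these genes, so its shares are a description. It was found in 4 of the 13 genes (30.8% of their promoters), in 24% of the 25 promoters of the whole tested list, and in 3.45% of all 32851 promoters. Capitals mark the match on either strand.
Chac1, chr2:119350992-119351241 (plus strand): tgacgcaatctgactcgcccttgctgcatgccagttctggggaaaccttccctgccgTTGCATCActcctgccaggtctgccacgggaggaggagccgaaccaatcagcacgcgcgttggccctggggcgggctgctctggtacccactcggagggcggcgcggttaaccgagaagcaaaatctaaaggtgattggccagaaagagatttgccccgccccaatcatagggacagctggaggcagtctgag
Asns, chr6:7693210-7693459 (minus strand): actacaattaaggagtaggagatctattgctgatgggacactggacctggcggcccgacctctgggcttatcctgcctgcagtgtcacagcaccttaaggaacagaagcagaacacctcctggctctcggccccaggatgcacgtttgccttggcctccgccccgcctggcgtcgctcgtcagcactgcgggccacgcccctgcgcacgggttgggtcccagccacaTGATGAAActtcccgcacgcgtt
Nupr1, chr7:126625471-126625720 (minus strand): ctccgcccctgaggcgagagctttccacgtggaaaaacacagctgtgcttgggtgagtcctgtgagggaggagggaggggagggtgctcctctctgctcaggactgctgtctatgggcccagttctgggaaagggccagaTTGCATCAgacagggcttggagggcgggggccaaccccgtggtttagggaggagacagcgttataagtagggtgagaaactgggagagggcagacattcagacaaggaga
Slc7a11, chr3:50443614-50443863 (minus strand): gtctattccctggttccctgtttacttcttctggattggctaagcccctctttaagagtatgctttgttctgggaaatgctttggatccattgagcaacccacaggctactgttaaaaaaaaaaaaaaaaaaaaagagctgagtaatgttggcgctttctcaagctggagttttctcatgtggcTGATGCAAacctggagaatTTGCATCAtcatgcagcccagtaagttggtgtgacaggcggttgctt
The match began 193 bases before the start in Chac1, 110 in Nupr1 and 23 in Asns, and Slc7a11 held it at 66 and 47 bases. Over the 151 genes below control, of which 124 matched the table with 157 promoters since some genes have several starts, the pattern was in 6.37% of promoters, and over the 115 above control (85 matched, with 103 promoters) in 2.91%. CCAAT, the box bound by NF-Y, was in 36.3% and 46.6% of them against 33.8% of all promoters, and CACGTG, the E-box of MITF and MYC, in 10.2% and 9.71% against 6.02%. TGANTCA of AP-1 was in 2.55% and 1.94% against 6.75%, TGGAAA of NFAT in 14% and 18.4% against 18.6%, and TTTCNNTTT of interferon response elements in 3.82% and 7.77% against 9.37%. Each pattern was counted on its own, so a stretch could count for more than 1 of them. All promoters include those of genes below the level tested, and shares over the tested genes alone were not computed.

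Cytosolic aminoacyl-tRNA synthetases, which load amino acids on tRNA, were looked at after some had been seen among the genes below control with RANKL + UD and above it with RANKL: of 20 tested members 10 fell and 5 rose with RANKL + UD (median -0.12), 15 rose with RANKL (median 0.24), and 7 met the rule (Aars, Cars, Gars, Iars, Nars, Sars and Tars). The 25% of these synthetases that rose with RANKL + UD is near the 26.7% of all tested genes, and 50% fell against 27.3%. Cars was at 21, 22.1 and 22.7 FPKM in control, 22.6, 24.2 and 23.6 with RANKL and 13.9, 14.9 and 14.9 with RANKL + UD. Autophagy genes, added in the same way, fell in 21 of 34 tested cases and rose in 6 (median -0.24), and 7 met the rule. That number rested on the control libraries, being 4 without control replicate 2 and 4 without control replicate 3, and it was 3 with limma on log2(FPKM + 1). Calcoco1 went from 4.89 ± 0.202 FPKM in control to 2.81 ± 0.07 with RANKL + UD and 5.66 ± 0.0624 with RANKL. Sqstm1, the p62 cargo receptor, was at 121 ± 5.24 FPKM in control, 123 ± 2.07 with RANKL + UD and 235 ± 7.38 with RANKL, and was not called against control (0.026 ± 0.046, adjusted p = 0.668).

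By size of the fall, the 10 leading genes below control were Car6, Ndrg1, Angptl6, Trib3, Chac1, AY036118, Gadd45a, Ddit3, Crebrf and Ypel3. Car6, a secreted carbonic anhydrase, was low throughout (1.05, 0.75 and 1.24 FPKM in control, 1.98, 1.99 and 1.49 with RANKL and 0.28, 0.03 and 0 with RANKL + UD). Ndrg1, a stress and hypoxia-induced gene, had the deepest fall among abundant transcripts: 47.2, 47.3 and 47 FPKM in control, 49.3, 50.4 and 50.2 with RANKL and 13.9, 13.5 and 13.4 with RANKL + UD. RANKL and control libraries of Ndrg1 lay close together, so its place in the group rested on a RANKL rise of 0.17 ± 0.043 on the log2 scale. Gadd45a, a growth arrest gene that is also a FoxO target, stood at 3.26, 2.93 and 2.52, 4.49, 4.93 and 4.76 and 1.38, 1.25 and 0.75 FPKM in control, RANKL and RANKL + UD. Ero1a, the oxidase that forms disulfides in the endoplasmic reticulum, was at 94.7 ± 0.857, 145 ± 5.23 and 59.9 ± 0.583 FPKM in that order, and Mxi1, an antagonist of Myc, at 13.7 ± 1.59, 16.6 ± 0.575 and 10.8 ± 0.422. Angptl6 overlaps Shfl on the other strand, and reads of the pair may be shared, since the counting is not stated to use strand.

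Genes above control with RANKL + UD and below it with RANKL included 8 of the 32 replication genes: Mcm4, Mcm6, Orc6, Pcna, Fen1, Lig1, Rrm1 and Rrm2. Rrm2, the ribonucleotide reductase subunit that sets deoxynucleotide supply, stood at 32.6, 34.8 and 38.5 FPKM in control, 18.1, 20.3 and 20.1 with RANKL and 41.4, 41.4 and 38.7 with RANKL + UD, and Rrm1, its partner, at 19.7, 20.4 and 22.2, 14.8, 13.7 and 14.4 and 24.4, 25.5 and 25.1. Pcna, the sliding clamp, was at 113 ± 2.58 FPKM in control, 128 ± 1.53 with RANKL + UD and 91.9 ± 3.56 with RANKL. Their rises over control were modest, from 0.13 ± 0.051 for Mcm6 to 0.41 ± 0.053 for Mcm4 on the log2 scale. The E2F pattern TTTCGCGC was in 16.1% of the 31 promoters of the 26 replication genes that matched the table. It was in 0.256% of all promoters, those of untested genes included. The Mcm6 promoter is shown because it holds that pattern, in capitals on either strand, 106 bases before the start.
Mcm6, chr1:128359706-128359955 (minus strand): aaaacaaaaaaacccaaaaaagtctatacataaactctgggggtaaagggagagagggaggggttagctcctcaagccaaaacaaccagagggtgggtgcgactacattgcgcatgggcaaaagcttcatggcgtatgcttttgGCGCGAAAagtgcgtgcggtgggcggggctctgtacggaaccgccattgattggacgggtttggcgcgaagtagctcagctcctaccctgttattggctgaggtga
Orc6 and Fen1 overlap Vps35 and Tmem258 on the other strand.

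The 10 leading genes above control by size were Gm37795, 4632404H12Rik, Gm48135, Olfr933, ENSMUSG00000121248, Olfr934, Gm45250, Epm2aip1, A130014A01Rik and Zfp770, several of them without a known role. 4632404H12Rik was at 8.74, 8.97 and 7.62 FPKM in control, 7.58, 7.01 and 6.3 with RANKL and 19.8, 19.1 and 18.1 with RANKL + UD. Olfr933 and Olfr934, olfactory receptor genes on chromosome 9 whose similar sequences can split reads between them, were at 16.8 ± 2.31 and 7.34 ± 0.543 FPKM in control and 36.9 ± 1.32 and 14.4 ± 0.641 with RANKL + UD. Zfp770, a zinc finger protein, rose from 6.14 ± 0.573 to 10.3 ± 1.01 FPKM. Of the genes above control that matched the GENCODE M21 annotation 87.7% were protein-coding, against 98% of those below and 84.8% of all tested genes. Their longest transcripts had a median GC content of 45.4%, against 50.5% for those below and 49% for all tested genes, and what part GC content has in the 2 directions was not tested.

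A further 537 genes rose and 393 fell with RANKL + UD while RANKL left them uncalled and within 0.2 of control on the log2 scale, at a mean of 5 FPKM or more in the higher group. Mybl2, a transcription factor of the G1 to S transition, stood at 6.93, 6.05 and 7.36 FPKM in control, 6.67, 6.88 and 7.47 with RANKL and 14.2, 14.7 and 14.5 with RANKL + UD. Clec7a, the receptor dectin-1 for fungal glucan, was at 49.6, 52.8 and 57.6, 53, 50.2 and 52.7 and 20.7, 22.6 and 21.1 FPKM in the same order. Pirb, an inhibitory receptor that damps activating signals in osteoclast precursors, was at 6.07, 6.42 and 6.81, 6.47, 5.4 and 5.81 and 2.54, 2.43 and 2.23, and F10, coagulation factor X, at 6.67, 7.16 and 6.79, 7.3, 7.14 and 7.64 and 1.7, 1.71 and 1.84. For Mybl2, Clec7a, Pirb and F10 every RANKL + UD library lay outside the range of the control and RANKL libraries. Log2 differences from RANKL were 0.96 ± 0.077 for Mybl2, -1.36 ± 0.06 for Clec7a, -1.38 ± 0.10 for Pirb and -2.16 ± 0.11 for F10. The others leading by size were Gm6329, Mir133a-2, Rab26os and Gm37694 above control, and Gm11874 and Gm49888 below.

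Pyrimidine synthesis and salvage, the pathway that uridine enters, had 8 of 27 tested members higher and 8 lower (median 0.068), 29.6% in each direction and close to the 26.7% and 27.3% of all tested genes. With RANKL 3 rose and 10 fell, and 13 of the 27 (48.1%) were higher with UD than with RANKL, against 18.6% of all tested genes. Umps, which makes uridine monophosphate, rose from 11.5 ± 0.317 to 18.2 ± 0.28 FPKM, Nme2 and Nme1, nucleoside diphosphate kinases, by 0.73 and 0.54, and Uck2, the kinase that phosphorylates uridine, by 0.32 ± 0.046. Cad, the enzyme of the first steps of pyrimidine synthesis, stood at 11, 11.8 and 13.4 FPKM in control, 9.59, 10.4 and 10.1 with RANKL and 13.9, 14.5 and 15 with RANKL + UD, and it met the opposite rule. No member of the list met that rule with DESeq2 or with each contrast fitted on its own 6 libraries. Up to 4 members did under other settings. P2ry6, the receptor for uridine diphosphate, and the nucleoside transporter Slc29a1 fell (log2 fold changes of -2.01 and -0.73), and neither was called against RANKL. Upp1 and Cda, which break down uridine and cytidine, were below the level tested.

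Genes of oxidant production and defence were mixed as well. In the NADPH oxidase list 5 of 8 fell and 2 rose (median -0.26): Cybb, the catalytic subunit of phagocytes, fell from 594 ± 5.58 to 165 ± 2.4 FPKM, and Nox1, another catalytic subunit, rose from 0.11, 0.14 and 0.19 FPKM to 1.54, 1.24 and 1.49, below the 4.25, 4.38 and 3.89 of RANKL, although Nox1 overlaps Cstf2 on the other strand. Of 22 antioxidant genes 9 rose (40.9%) and 8 fell (36.4%), with a median of -0.0013. Hmox1, heme oxygenase 1, changed by -0.99 ± 0.07 with RANKL + UD and was not called with RANKL (0.12 ± 0.067), whereas Prdx3, a mitochondrial peroxiredoxin, rose by 0.67 and Txn1, thioredoxin, by 0.39. Components of PI3K, Akt and FoxO signalling fell in 11 of 20 tested cases (55%) and rose in 4 (20%), with a median of -0.21. Of all tested genes 27.3% fell and 26.7% rose. With RANKL 9 of these components fell and 6 rose (median -0.15). Among those that fell with RANKL + UD were Foxo1 (-0.35 ± 0.10), Foxo4 (-0.54 ± 0.14) and Pik3cg (-1.65). Foxo3 and Akt1 were not called (-0.11 ± 0.07 and -0.0089 ± 0.057), and Pdpk1, Pik3ap1 and Pik3cb were among the members that rose. FoxO target genes fell in 11 of 16 tested cases (68.8%) and rose in 1 (median -0.50), led by S1pr1, Klf2 (-3.18), Bcl6, Gadd45a and Ccng2. The member that rose was Cited2 (0.21). With RANKL 9 of these targets fell and 5 rose (median -0.30). The broader KEGG PI3K-Akt pathway had 58 of 202 genes higher (28.7%) and 73 lower (36.1%) with RANKL + UD (median -0.052), closer to the shares of all tested genes. In the KEGG FoxO pathway 25 of 101 were higher (24.8%) and 45 lower (44.6%), with a median of -0.15.

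In cholesterol synthesis 10 of 24 genes fell and 2 rose (median -0.13), Dhcr7 (-0.98) and Pmvk (-0.93) the most, and Stard4, a sterol carrier that met the opposite rule, rose by 0.29. Among broader KEGG pathways the osteoclast differentiation pathway had 31 higher and 58 lower of 110 genes (median -0.22), and with RANKL 38 and 49. That pathway lists receptors and cytokines of precursors beside osteoclast effectors, and Ctsk and Acp5 in it rose while Fos and Csf1r fell. Lysosome genes rose in 47 (38.8%) and fell in 39 (32.2%) of 121 cases, and phagosome genes rose in 37 (29.8%) and fell in 58 (46.8%) of 124, where 26.7% of all tested genes rose and 27.3% fell. Proteasome genes rose in 26 and fell in 7 of 53, ribosome biogenesis genes in 36 and 5 of 85, and genes of protein processing in the endoplasmic reticulum in 70 and 34 of 168. Ribosome rows, many of which are pseudogene copies that share reads, rose in 59 (15.8%) and fell in 27 (7.22%) of 374 cases, both below the shares of all tested genes.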

How the data were processed

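Poly(A) RNA of RAW264.7 cells was sequenced as strand-specific paired-end libraries, with 3 libraries per group (control, RANKL, RANKL + UD). The authors deposited a gene table with raw counts per gene and FPKM, which they had computed from those counts, gene length and library total. FPKM recomputed from the deposited counts agreed within 0.0051 for 100% of genes. The labels name the mouse build mm10, and the aligner, counter and annotation are not given in the sources used here. Only 1472 of 52073 genes shared with the GRCm38 annotation had identical start and end in the table, so no coordinates of the table are printed.

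Counts of the 11995 genes whose FPKM reached 1 in 3 or more libraries were fitted over all 9 libraries with edgeR 4.0.16 in R 4.3.3 (TMM scaling, quasi-likelihood F-test, Benjamini-Hochberg adjustment over all tested genes), and all adjusted p-values in the text come from that fit. The SE is that of the fitted log2 fold change, and SD is over the 3 libraries. A gene was called at an adjusted p under 0.05. Genes with less than 1 FPKM in every control library passed the filter only through libraries given RANKL, so a rise of such genes was in part set by the filter. Alternatives were DESeq2 1.42.0, limma 3.58.1 on log2(FPKM + 1) and log2(FPKM + 0.1), other filters and scalings, a replicate block, the 6 libraries alone and each library left out in turn.

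The members and the 22 gene lists were chosen with earlier results of these data known, and 2 lists were added after values of some members were seen. Named genes were the members of each list with the largest changes and those that went against their list, the 10 largest rises and falls, the 10 largest per direction opposite to RANKL, the 5 largest per direction that RANKL left uncalled, and genes the study names. Other genes named were chosen after their values were seen, and some members' results are not reported here. KEGG pathways came from the deposited table. Promoter sequences were RefSeq's, and patterns were searched in the 250 bases before each start. TGATGNAA was added to the patterns first chosen.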

Additional observations from a re-analysis of the deposited data

How the results depend on the processing

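Without scaling beyond total counts, the genes beyond control opposite to RANKL numbered 197 above and 103 below control, against 115 and 151 with TMM scaling, and 114 and 103 of them were shared with the TMM sets. With limma on log2(FPKM + 0.1) they numbered 173 above and 89 below, and on log2(FPKM + 1) 181 and 89, with 10 and 21 past a 1.5-fold change, where 101 of the 181 and 84 of the 89 were shared. The same fits called 1536 and 1556 genes lower with UD than with RANKL (2418 by edgeR), and 327 past 1.5-fold on log2(FPKM + 1) (658 by edgeR). The cause of these differences was not tested.

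Leaving out each library in turn gave 82 to 120 opposite genes above and 113 to 155 below control, the fewest without control replicate 2. Genes called higher and lower in RANKL + UD against control ranged from 2871 to 3247 and from 2973 to 3347. The median share of the RANKL distance over the resorption genes, 69.4% on FPKM, was 64.1% on TMM-scaled CPM, 80.8% on the log2 scale, which was added after seeing the data, and 68.2% to 72.0% over the left-out libraries.

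Deviations of same-numbered libraries correlated weakly (-0.03 to 0.097), and those of different-numbered libraries ran from -0.102 to 0.0644. Values this small cannot settle whether the numbers pair the libraries. With the replicate number as a block 6602 genes were called in RANKL + UD against control, and 126 and 165 opposite to RANKL. Fitting each contrast on its own 6 libraries, also added after seeing the data, gave 101 and 156. Of 399 called list or named genes, none changed sign in RANKL + UD against control under the settings run. At most 20 of them lost the call under a setting, without RANKL + UD replicate 3. Signs of other genes and of the other contrasts were not checked.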
